A study of Drosophila melanogaster with 4 samples.

Results

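Closely spaced H3K4me3 regions are enriched regions that lie less than 500 bp from the next one, so that an interval shorter than the regions themselves separates neighbouring stretches of marked chromatin. They were chosen from the list of enriched regions for the set of both replicates, called the combined list here. A member had a positive score in the authors' list, a width below 7000 bp and a gap of less than 500 bp to the nearest other enriched region of any width on the same sequence. Of 4979 enriched regions, 605 met this rule (12.2%). They came from head nuclei of Oregon-R (official name Oregon-R-modENCODE), a wild type Drosophila melanogaster laboratory strain, collected as mixed adults from population cages. The chromatin was precipitated with the antibody ab8580, lot 2, against H3K4me3. The design has 2 ChIP replicates and an input sample for each. There was no second genotype, tissue, antibody or treatment. Heads were collected in bulk, so the lists average over all cell types of the head, and a gap in the list need not be a gap in every cell.

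Trimethylation of lysine 4 on histone H3 marks nucleosomes at the start of transcribed genes. In flies it is written mainly by the Set1 form of the COMPASS complex, which works together with the initiating and early elongating RNA polymerase. The fly genome is compact, and promoters of neighbouring genes can lie close together, including divergent pairs that share an upstream interval. The active start site itself is usually depleted of nucleosomes, with marked nucleosomes on one or both sides. Whether any gap described here lies at a start site was not analysed here. The regions are given in FlyBase release 5 coordinates and the gene table used here in those of Release 6, so no genes or sequences are named.

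The position, width and sign of the score in the combined list chose the members, so these values are given as a description without a test. The combined list belongs to the same 2 replicates and is not a separate sample, and gaps are not replicates of each other. Shares are therefore given with exact (Clopper-Pearson) 95% intervals, which cover counting error only, and no p-value is reported. Since the files hold no read counts, the depth is unknown. The labels do not state whether the replicates are separate fly cultures.

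The 605 members formed 323 runs, counting also the wider regions beside them. Of these runs, 298 were pairs, 23 had 3 regions and 2 had 4. They contained 350 gaps with a member on at least 1 side. Both neighbours were members at 282 gaps, and at the other 68 a member stood beside a region of 7000 bp or more. A further 2 gaps under 500 bp separated regions that were both too wide to be members and were left out. The median gap was 214.5 bp wide, with an interquartile range of 104 to 346.75 bp, and all 350 added up to 78.3 kb, while the members covered 2.09 of the 19.1 Mb of all enriched regions. At 4 gaps the width was 0 bp, which means that a region ended on the base before the next began. Over all 4966 gaps of the combined list the median width was 7929.5 bp.

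The limit of 500 bp did not separate a distinct class of gaps. The combined list held 87 gaps of 0 to 99 bp, 80 of 100 to 199 bp, 52 of 400 to 499 bp and again 52 of 500 to 599 bp. Just inside the limit were gaps of 497 bp on 2R, between regions at 669514 to 672421 and 672919 to 677634, and on 3L, between 15943557 to 15946769 and 15947267 to 15951536. Just outside it were gaps of 501 bp on 2R, between 10821711 and 10822213, and on X, between 21218193 and 21218695. All 4 were present in both replicates. The widest members were regions of 6969 bp on 2L at 19040880 to 19047848 and of 6945 bp on X at 3996546 to 4003490. The narrowest region with a close neighbour that was too wide for the rule measured 7027 bp and lay on 2L at 289841 to 296867.

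**Figure D1:**
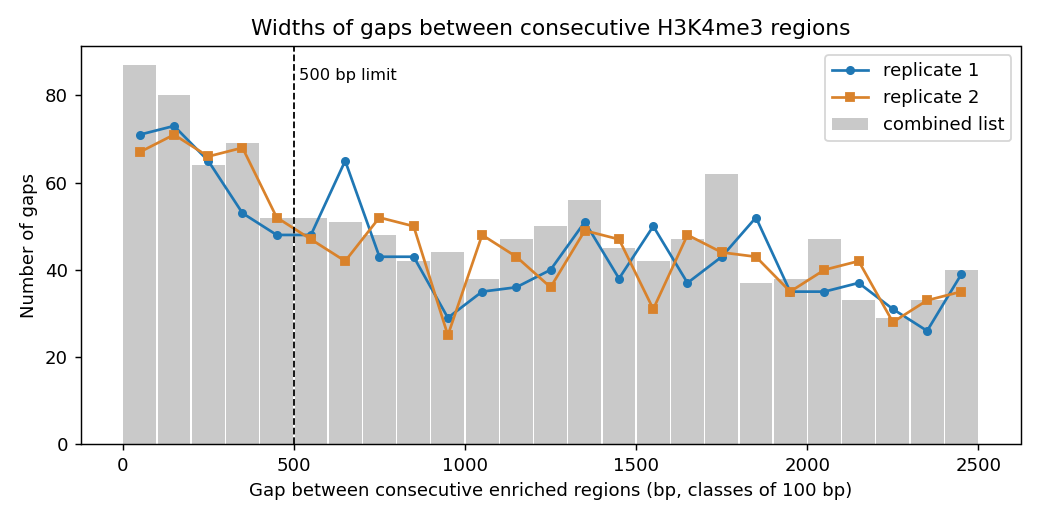
Number of gaps between consecutive enriched regions by gap width, in classes of 100 bp up to 2500 bp. Grey bars are the combined list, and points joined by lines are replicates 1 and 2. The combined list falls from 87 gaps in the first class to 52 in the last class below the dashed 500 bp limit, with 52 in the class above it.

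Members resembled the other regions below 7000 bp in width and had a higher median score. Member widths had a median of 3148 bp and an interquartile range of 2501 to 4388 bp, against a median of 2991 bp for the 3969 regions below 7000 bp without a close neighbour. The authors' score per region, whose scale is not given in the sources used here, had a median of 1.92 among members and 1.65 among those other regions. The interquartile ranges of the score, 1.15 to 2.28 and 0.77 to 2.19, overlapped over most of their length. At 280 of the 350 gaps (80.0%) the higher-scored neighbour was also the wider, against 76.1% of gaps of 500 bp or more. Scores of the neighbours of a gap had a Spearman correlation of 0.19 across the 350 gaps and their widths of 0.05. The score correlation was 0.12 over the 237 gaps of 500 bp to below 1000 bp, 0.15 over the 1359 gaps from there to below 5000 bp and 0.03 over the 3018 wider gaps. The width correlation in these classes was 0.06, 0.10 and 0.06. The points share a list and its caller, and regions with a neighbour on each side enter 2 points. The higher-scored neighbour of a close gap had a median score of 2.23 and the lower one 1.54, and the median difference was 0.555. That difference was 0.470, 0.561 and 0.752 in the 3 wider classes. At 124 of the 350 gaps (35.4%) the lower neighbour scored below 1, against 47.0% of gaps of 500 bp or more.

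Joined over their gaps, 195 of the 323 runs (60.4%, 54.8 to 65.7%) spanned at least 7000 bp. Whether a run forms a single domain was not tested. The median run spanned 7980 bp from its first to its last base (interquartile range 5996 to 10716 bp), and its regions covered a median of 97.4% of that span. Of the 323 runs, 102 (31.6%, 26.5 to 37.0%) spanned more than 10000 bp, compared with 127 single regions of that width in the whole combined list. These counts overlap, because a run can include a wide neighbour that alone exceeds 10000 bp. The run on 2L at 10418328 to 10441133, for example, held a region of 20030 bp. Among the 255 runs made of members alone, 127 (49.8%, 43.5 to 56.1%) spanned at least 7000 bp and 35 spanned more than 10000 bp.

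The runs with the most regions are given as examples of divisions in the combined list and in the replicates. On 3L, 4 regions followed each other at 3804898 to 3820232, 3416, 4600, 3148 and 3397 bp wide, with scores from 1.87 to 2.25. The combined gaps between them measured 146, 137 and 491 bp. The same 4 regions appeared in each replicate, with gaps of 215, 166 and 748 bp in replicate 1 and of 227, 242 and 1511 bp in replicate 2. Every gap was thus wider in both replicates than in the combined list, and the last differed most between them. The other run of 4 lay on 2L at 15761230 to 15772026, where the combined gaps of 13, 288 and 397 bp stood against 40, 439 and 407 bp in replicate 1 and 119, 511 and 434 bp in replicate 2. Its first region scored 0.44 and the next 2.18, so a boundary 13 bp wide in the combined list separated a weak from a strong region, and it was found in both replicates.

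Over all 323 runs, 221 (68.4%, 63.0 to 73.5%) had the same number of regions in both replicates as in the combined list. Replicate 1 had fewer regions in 62 runs and more in 23, and replicate 2 fewer in 60 and more in 19. Of the 25 runs of 3 or more regions, 18 (72.0%) had the same number in replicate 1 and 17 (68.0%) in replicate 2. Among the longest runs of 3, the replicates in places divided the chromatin further. On 3R at 5578838 to 5598245, 3 combined regions of 5156, 6514 and 7137 bp stood where each replicate had 5. Both combined gaps were present in each replicate, 447 and 228 bp wide in replicate 1 and 364 and 592 bp in replicate 2. The additional gaps measured 6 and 296 bp in replicate 1 and 8 and 82 bp in replicate 2, and they fell inside the first and the last combined region in both. On 3R at 5375098 to 5391597, 3 combined regions matched 3 regions of replicate 1 and 4 of replicate 2, where a 2 bp gap divided the first. On 2L at 2871809 to 2889865 each list had 3 regions, with gaps of 32 and 478 bp in the combined list, 34 and 640 bp in replicate 1 and 179 and 528 bp in replicate 2.

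**Figure D2:**
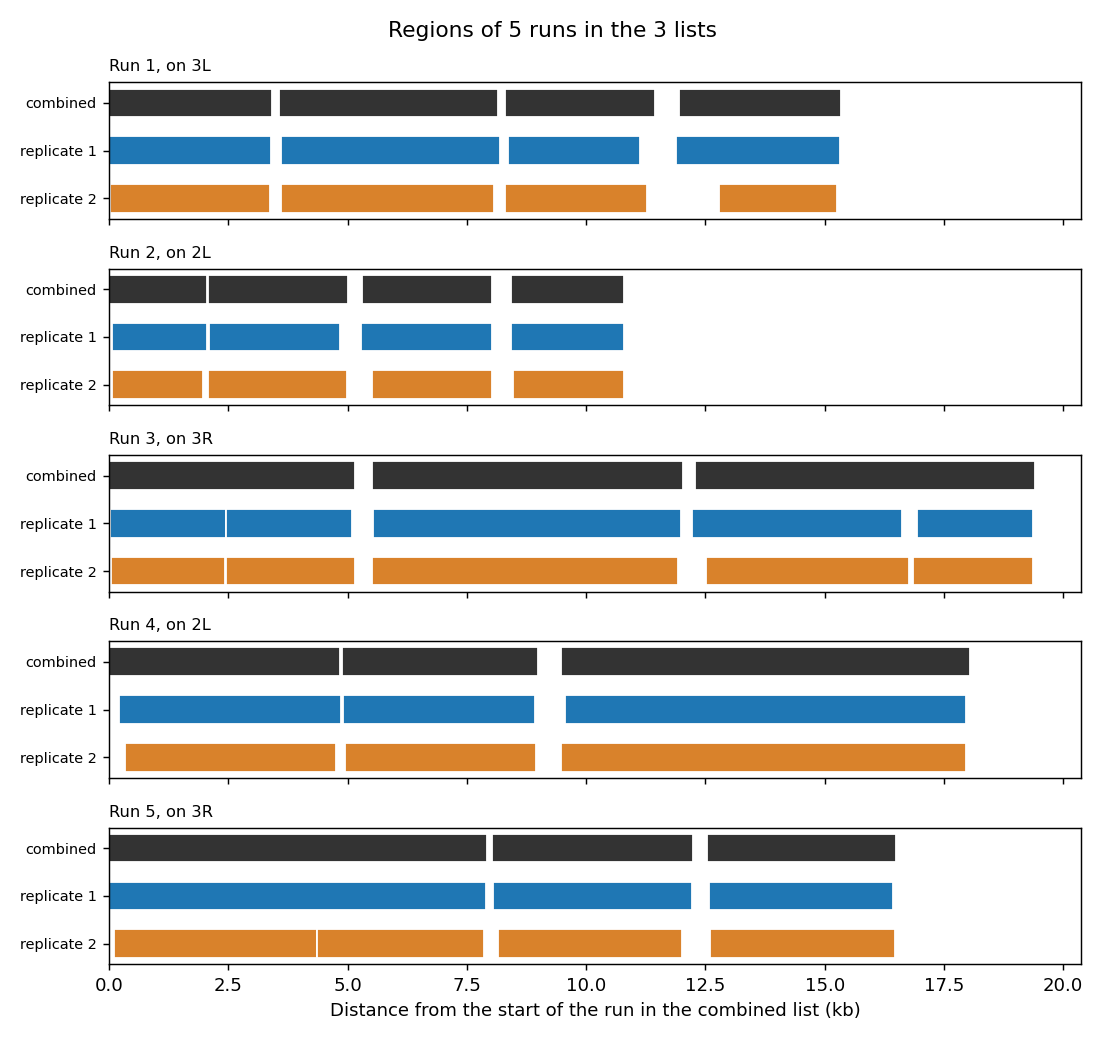
Enriched regions of the 2 runs of 4 regions and the 3 longest runs of 3, drawn to scale as bars in the combined list and in each replicate, against the distance from the start of the run in kb. White lines mark region ends, so that gaps of a few bp are drawn wider than they are. The combined gaps recur in both replicates, and run 3 has 5 regions in each replicate against 3 in the combined list.

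The main question was whether each gap was also found in the list of each replicate. A gap was called present if both neighbours overlapped a replicate region by at least 1 bp and no replicate region reached both, bridged if a single replicate region reached both, and undecided if a neighbour had no replicate region at all. A bridged pair is not always undivided, since the replicate can be divided inside one of the neighbours instead. Of the 350 gaps, 281 (80.3%, 75.7 to 84.3%) were present in replicate 1, against 85.1% of all 4966 gaps of the combined list. In replicate 2 the number was also 281, against 85.2% of all gaps. In each replicate 7 gaps (2.00%, 0.808 to 4.08%) were bridged, against 0.141% of all gaps in each. The mean share over the replicates was 0.714% when an overlap of 50% of the narrower region was required, and 3.71% when covering 50% of the gap counted as a bridge. A neighbour was missing at 62 gaps in each replicate (17.7%, 13.9 to 22.1%), against 14.7% and 14.6% of all gaps. The equal counts came from partly different gaps.

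Set side by side, 264 gaps (75.4%, 70.6 to 79.8%) were present in both replicates, against 80.7% of all gaps. Missing in both was a neighbour at 47 gaps (13.4%), and the state differed between the replicates at 39 (11.1%, 8.04 to 14.9%), against 8.98% of all gaps. No gap was bridged in both replicates, and 0 of 350 allows a share of up to 0.857% when 3 counts are taken as the limit, which is not an exact interval. Where both neighbours were found in both replicates, which held for 273 gaps, 264 (96.7%, 93.8 to 98.5%) were present in both. Most of the gaps that were not repeated therefore lacked a neighbour in a replicate and were not closed by a single region.

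Among gaps of the combined list, bridging in a replicate was seen only below 500 bp, and mostly in the narrowest gaps. All 14 bridged gaps of the combined list were among the 350, 0.282% of all 4966 gaps. The width classes given next cover all gaps of that width, including the 2 between regions too wide to be members. Of the 87 gaps of 0 to 99 bp, 6 were bridged in replicate 1 (6.90%, 2.57 to 14.4%) and 5 in replicate 2 (5.75%, 1.89 to 12.9%), and 53 (60.9%, 49.9 to 71.2%) were present in both. Between 100 and 499 bp there was 1 bridged gap in replicate 1 and 2 in replicate 2. Present in both replicates were 85.0% (75.3 to 92.0%) of the 80 gaps of 100 to 199 bp and 78.8% (65.3 to 88.9%) of the 52 gaps of 400 to 499 bp. The 237 gaps of 500 to 999 bp had 86.9% (82.0 to 90.9%) present in both.

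**Figure D3:**
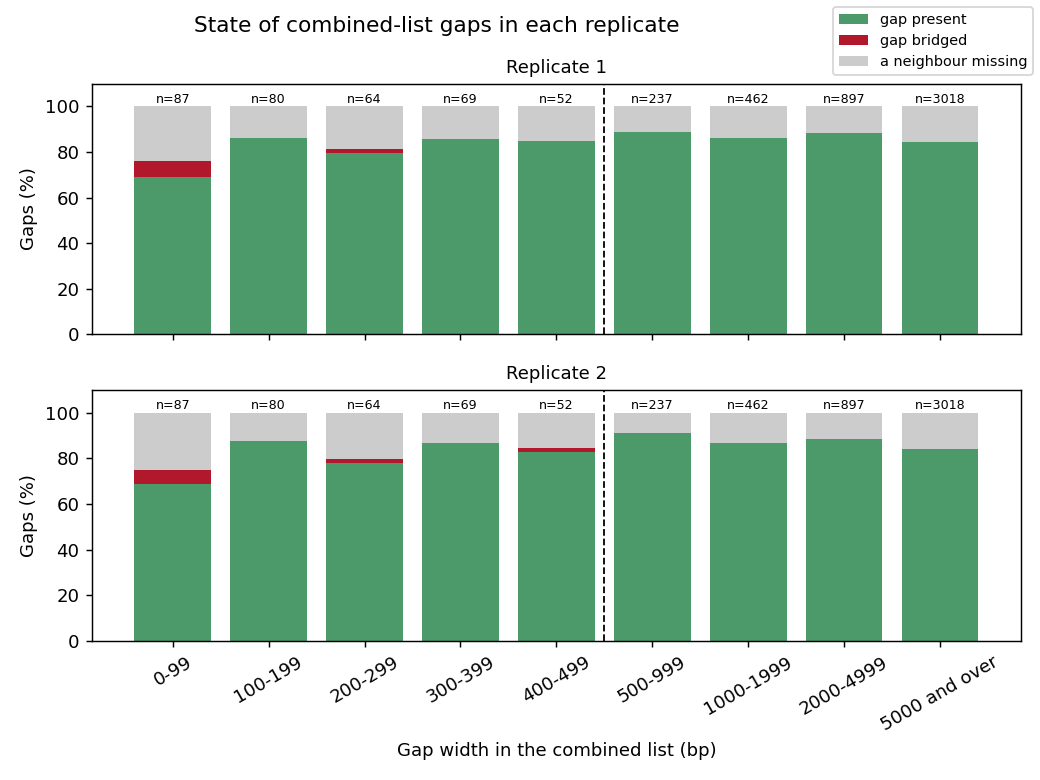
Percentage of combined-list gaps that were present (green), bridged by a single region (red) or undecided because a neighbour was missing (grey) in replicate 1 and replicate 2, by gap width in the combined list, with the number of gaps above each bar. All gaps are drawn, including the 2 between regions too wide to be members. Bridged gaps appear left of the dashed 500 bp limit, with 6.90% and 5.75% in the narrowest class. A bridged pair can still be divided inside a neighbour in that replicate.

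The bridged gaps themselves were few enough to follow individually. The narrowest bridged in replicate 1 lay on 3L, where regions of 4818 and 3630 bp met between 6184591 and 6184592 with scores of 2.37 and 2.44. In replicate 1 a single region reached both, while in replicate 2 a gap of 162 bp was present. Replicate 1 still had 2 regions over this pair, so it was divided inside a combined region. On 2R, gaps of 5 bp between 19865696 and 19865702 and of 12 bp between 8393071 and 8393084 were bridged in replicate 1 and measured 93 and 385 bp in replicate 2. In the other direction, a gap of 9 bp on 3R between 19591509 and 19591519 was bridged in replicate 2 and measured 89 bp in replicate 1, and 1 of 18 bp on 3L between 1297767 and 1297786 measured 125 bp. On X, a gap of 1 bp between 16194628 and 16194630 was bridged in replicate 2, while in replicate 1 the narrower neighbour, 1975 bp wide and scored 0.43, had no region. The median of the 14 gaps was 18 bp, with quartiles at 9.75 and 47 bp. The widest was 403 bp on X, between 7808523 and 7808927, beside a region of 1119 bp that had no counterpart in replicate 1. The bridging replicate also had 2 regions over the pairs with the 12 bp gap named above on 2R and the 9 bp gap on 3R. The same held for the 18 bp gap on 3L and the gaps of 1 and 403 bp on X. At the 5 bp gap on 2R it had 1 region. Of the remaining pairs, it had 2 regions over those starting on 2R at 16958977 and X at 21218695, and 3 on X at 15618268. It had 1 region over the pairs on X at 15234584, 3R at 25141992 and 3L at 5913267, and over the run on 2R at 1605772. Most of the 14 bridged pairs were therefore still divided in the bridging replicate.

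Where a neighbour was missing, it was nearly always the weaker of the 2. In replicate 1 both neighbours were missing at 3 of the 62 gaps. At the other 59 the missing neighbour was the narrower at 58 and the lower-scored at 55. Replicate 2 had 4 gaps without either neighbour, and at the other 58 the missing region was the narrower at 57 and the lower-scored at 54. Among the 47 gaps with a neighbour missing in both replicates, the lower of the combined scores had a median of 0.34 and the narrower neighbour a median width of 1355 bp. For the 264 gaps present in both these medians were 1.79 and 2867 bp. No base of the gap was covered at 53 of the 62 undecided gaps in replicate 1 and at 56 in replicate 2. The narrowest gaps included such places: on 2L a region of 1093 bp scored 0.29 ended at 5007302, directly before a region of 5476 bp scored 2.66, and on X a region of 1479 bp scored 0.41 ended at 6147092, directly before a region of 4364 bp scored 2.76. Neither of these narrow regions was found in a replicate. Another on X, 1584 bp wide and scored 0.14, ended at 14215708, directly before a region of 3670 bp scored 1.45. It was missing in replicate 1 but found in replicate 2, where the gap measured 18 bp. Of all members, 525 (86.8%) were found in both replicates, against 89.3% of the other regions below 7000 bp and 89.9% of all enriched regions.

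Gaps present in a replicate were wider there than in the combined list. In replicate 1 the 281 gaps had a median of 352 bp (interquartile range 215 to 520 bp), and in replicate 2 a median of 359 bp (219 to 485 bp), against 222 bp and 221 bp for the same gaps in the combined list. Replicate 1 exceeded the combined list by a median of 88 bp and replicate 2 by 98 bp. The gap was wider than in the combined list at 257 of 281 gaps (91.5%, 87.6 to 94.5%) in replicate 1 and at 268 (95.4%, 92.2 to 97.5%) in replicate 2. As a result 204 gaps (72.6%) in replicate 1 and 216 (76.9%) in replicate 2 would still fall under the limit of 500 bp, and 174 of the 264 present in both (65.9%) did so in both. The combined gap was narrower than both replicate gaps at 228 of 264 (86.4%) and lay between them at the other 36.

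A difference of like size was seen at wider gaps and at the outer edges of the runs. Combined gaps of 500 to 999 bp were a median of 91 bp wider in replicate 1 and 98.5 bp wider in replicate 2, and those of 2000 to 4999 bp were 84 and 95 bp wider. In 197 pairs in which each region matched a single region of each replicate, the edges facing the gap lay a median of 41.5 bp inside the combined edges in replicate 1 and 42.5 bp in replicate 2. The outer edges of the same pairs lay 47 and 50 bp inside. Edges at the gap were further inside than outer edges in 88 of the 197 pairs (44.7%) in replicate 1 and 86 (43.7%) in replicate 2.

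The replicates placed the gaps at the same position to within a fraction of their width. The centres of the gaps present in both differed by a median of 40 bp between replicates (interquartile range 18.5 to 86.6 bp), and at 215 of 264 (81.4%, 76.2 to 85.9%) by no more than 100 bp. Their widths differed by a median of 77 bp without regard to sign and were correlated between replicates with a Spearman coefficient of 0.66 and a Pearson coefficient of 0.52. These correlations are across 264 gaps of 1 pair of libraries. The 3 pairs with the strongest lower neighbour are given as examples. On 2R, regions scored 2.65 and 2.71 were separated by 35 bp between 12841156 and 12841192, and the gap measured 149 bp in replicate 1 and 77 bp in replicate 2. On 2L, regions scored 2.63 and 2.59 stood 225 bp apart, between 6067905 and 6068131, with gaps of 281 and 274 bp. On 3R, regions scored 2.51 and 2.61 stood 492 bp apart, between 25867623 and 25868116, with gaps of 513 and 707 bp. Strong neighbours were thus divided in both replicates even at the narrowest of these 3 gaps.

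Very narrow gaps could also be repeated. The narrowest gap present in both was 5 bp on 2L, between 4387879 and 4387885, with 136 bp in replicate 1 and 262 bp in replicate 2. Another, of 11 bp on 2R between 6011013 and 6011025, measured 24 and 72 bp. On X, a combined gap of 8 bp between 6264985 and 6264994 stood against gaps of 2491 and 2028 bp, so each replicate had more than 2000 bp without a region where the combined list had almost closed. Among the widest gaps the changes were smaller in proportion. The 497 bp gap on X between 3996048 and 3996546 measured 536 bp in replicate 1 and 615 bp in replicate 2. Those on 2L between 6052601 and 6053097 (495 bp) and between 2974760 and 2975253 (492 bp) measured 434 and 817 bp and 787 and 452 bp. The gaps of 497 bp on 2R and 3L named above measured 399 and 796 bp and 527 and 563 bp.

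**Figure D4:**
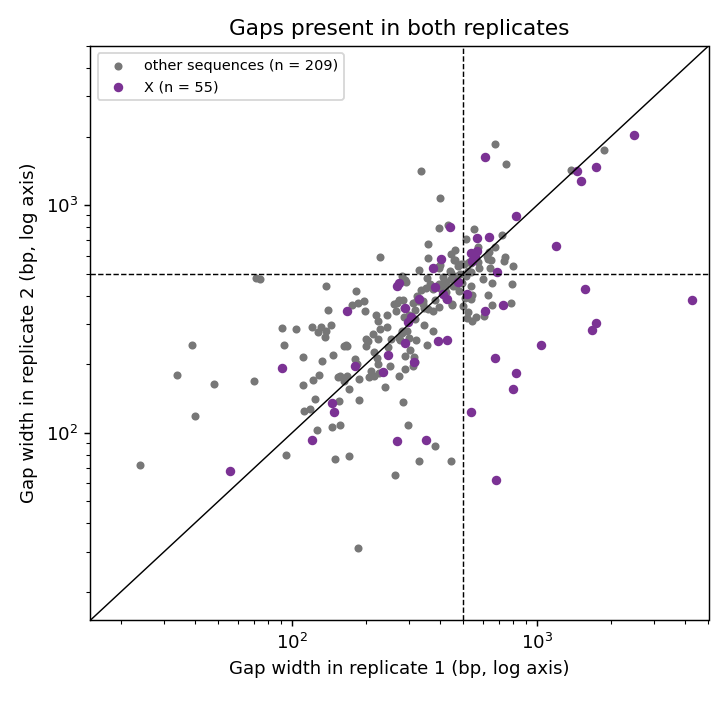
Gap width in replicate 1 against replicate 2, both in bp on log axes, for the 264 gaps present in both replicates, with the 55 gaps on X in purple and the others in grey. The solid line is equality and the dashed lines mark 500 bp. The points follow the line with a Spearman coefficient of 0.66, and several X gaps lie far below it.

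The X chromosome held the largest share of closely spaced regions among the arms, in the combined list and in replicate 2. There, 143 of 890 enriched regions were members (16.1%, 13.7 to 18.6%), and of the 3924 regions on the 4 large autosomal arms (2L, 2R, 3L and 3R) 451 were (11.5%, 10.5 to 12.5%). The arms 3R (13.1%) and 3L (13.0%) lay above 2L (9.77%) and 2R (9.72%), although 2R had the most enriched regions per Mb of these arms, 47.2 against 40.4 on 3R. When the same rule was applied to the list of each replicate, X had 13.1% and 14.7% in replicates 1 and 2, and the large autosomal arms had 11.4% and 11.7%. In replicate 1 the value of X was below that of 3R, 13.3%. The difference between X and the large arms thus kept its direction in each replicate and was smaller there, 107 of 819 and 122 of 831 regions on X. Chromosome 4 had 9 members of 74 regions (12.2%, 5.71 to 21.8%), an interval that includes the shares of every other arm.

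Outside these arms close neighbours were almost absent. Of 91 regions on the heterochromatic (Het) and unplaced (U) sequences, 2 were members (2.20%, 0.267 to 7.71%). Regions of any spacing were sparse on these sequences, 1.88 per Mb against 40.6 on the large autosomal arms. Whether the share of members is low for such a density was not tested. The 2 members formed a pair on 3LHet at 593509 to 602215, with widths of 4191 and 4380 bp, scores of 2.14 and 1.77 and a gap of 136 bp. The gap was present in both replicates and measured 562 bp in replicate 1 and 323 bp in replicate 2.

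**Figure D5:**
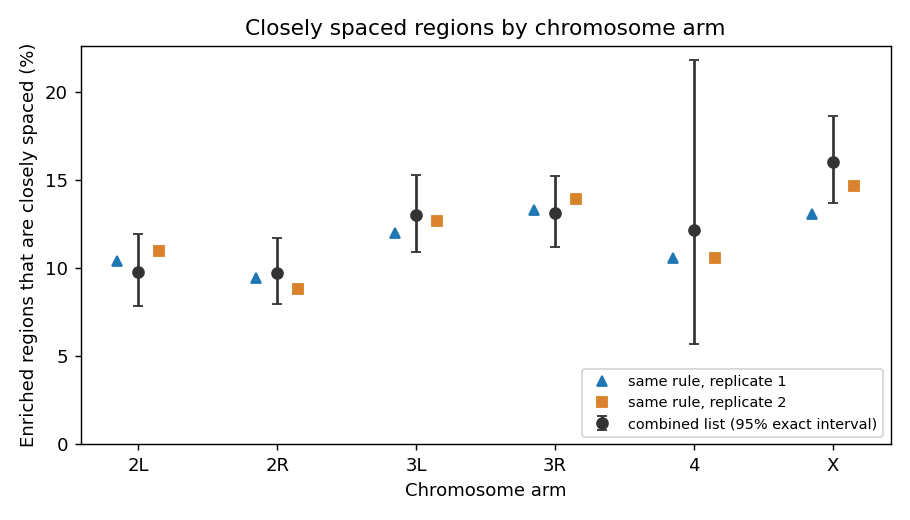
Percentage of enriched regions that are closely spaced on each chromosome arm. Black points are the combined list with exact 95% intervals, and triangles and squares are the same rule applied to replicates 1 and 2. X has 16.1% in the combined list, 13.1% in replicate 1 and 14.7% in replicate 2.

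Gaps on X were wider in replicate 1 than in replicate 2 by their medians, and those on the large autosomal arms narrower. On X 55 of 82 gaps were present in both replicates (67.1%, 55.8 to 77.1%) and on the large arms 205 of 262 (78.2%, 72.8 to 83.1%), intervals that overlap. On X the median gap was 473 bp in replicate 1 and 364 bp in replicate 2, and on the large autosomal arms 318 and 356 bp. Taken gap by gap, replicate 2 minus replicate 1 had a median of only -27 bp on X (interquartile range -272.5 to 59.5 bp). On the large arms this paired difference had a median of 23 bp (-42 to 85 bp), and both ranges held differences of either sign. The gap was narrower in replicate 2 at 33 of 55 gaps on X (60.0%, 45.9 to 73.0%) and at 86 of 205 on the large arms (42.0%, 35.1 to 49.0%). Of 17 gaps that were present in both replicates and over 1000 bp wide in at least 1 of them, 11 lay on X. The greatest difference was on X at 1765833 to 1786147, where a combined gap of 350 bp measured 4295 bp in replicate 1 and 381 bp in replicate 2. A gap shares its edges with the regions beside it, so these gap widths are not independent of the widths of X regions in each replicate. With 2 libraries, a difference between libraries and a difference between flies cannot be told apart.

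Seen from the replicates, a single combined region reached both neighbours at many of the close replicate gaps. As above, such a pair can still be divided in the combined list inside one of its regions. Replicate 1 had 308 gaps under 500 bp beside a region below 7000 bp, of which 207 (67.2%) were present in the combined list and 101 (32.8%, 27.6 to 38.3%) were bridged by a combined region, against 2.47% of all gaps of replicate 1. For replicate 2 the numbers were 216 (67.3%) and 105 (32.7%, 27.6 to 38.1%) of 321, against 2.53% of all its gaps. Of these bridged gaps, 41 of 101 (40.6%) of replicate 1 were present in replicate 2, and 41 of 105 (39.0%) of replicate 2 in replicate 1. The gaps bridged in the combined list were the narrower ones, with medians of 85 and 116 bp in replicates 1 and 2, against 283 and 287.5 bp for those that were present. The combined regions over them had median widths of 8039 and 7925 bp, and 65 of 101 and 64 of 105 were 7000 bp or wider. By comparison, each replicate bridged 7 of the 350 close gaps of the combined list.

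Between the replicates themselves, without the combined list, 242 of the 308 close gaps of replicate 1 (78.6%, 73.6 to 83.0%) were present in replicate 2, against 93.6% of all gaps of replicate 1. A further 56 (18.2%, 14.0 to 23.0%) were bridged, against 1.32% of all gaps. In the other direction 246 of 321 (76.6%, 71.6 to 81.2%) were present in replicate 1, against 93.2% of all gaps of replicate 2, and 57 (17.8%, 13.7 to 22.4%) were bridged, against 1.3%. Bridging fell with gap width. A gap bridged here can still be divided close by in the other replicate, since a shifted boundary also counts as bridged. Such cases were not separated. Of the gaps of 0 to 99 bp, 34 of 71 in replicate 1 (47.9%) and 33 of 67 in replicate 2 (49.3%) were bridged in the other replicate, and of those of 300 to 399 bp, 3 of 53 (5.66%) and 3 of 68 (4.41%) were. It did not end at 500 bp: of gaps of 500 to 999 bp, 4 of 228 (1.75%) and 2 of 216 (0.926%) were bridged. The combined list bridged 8 (3.51%) and 9 (4.17%) of these wider gaps.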

How the data were processed

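Enriched regions of H3K4me3 in adult fly heads were analysed from 2 ChIP replicates. Per the file headers, the 3 deposited lists (each replicate, and the set of both) are in FlyBase release 5 coordinates, with a start, an end and a score per region. The submitters' processing notes name Bowtie 0.12.7. Which caller and threshold made the regions, how the set was combined and what scale the score has is not given in the sources used here, and the caller, threshold and combining can move region ends and so open or close a gap. Regions with a positive score were sorted by position, and the gap was the next start minus the previous end minus 1. The 2 depleted regions were left out, and neither touched a gap described here. Input samples were not analysed here, and no list gives depth.

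Counts, medians and exact 95% intervals were computed with Python 3.11.15, numpy 2.4.6, pandas 2.3.3, scipy 1.17.1 and matplotlib 3.10.9. The members and the rules for naming regions were chosen with earlier results of these data known. Regions named were the 5 runs with the most regions, the 5 narrowest and 5 widest gaps, the 3 with the strongest lower neighbour, the 3 narrowest present in both replicates or bridged in a single replicate, those nearest each limit, and the members of the sequence group holding the fewest. No gap was bridged in both replicates, so that part of the rule named none. The widest bridged gap, the 7027 bp region and the X gaps at 1765833 and, in the closing section, at 11259665 were chosen after their values were seen. The remaining bridged gaps were given so that every bridged gap was covered. The classification was tested on 1000 simulated gaps, of which 100% were read back correctly. The simulated replicate regions were trimmed at the gap, spanned the pair or lacked a neighbour. A replicate boundary shifted into a neighbour was not simulated.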

Additional observations from a re-analysis of the deposited data

How the results depend on the processing

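All values are counts or shares without a test. The number of members fell to 359 with a gap limit of 250 bp, rose to 998 with 1000 bp and fell to 226 when only regions at or above the median score of their own list were kept. The mean share of gaps bridged in a replicate, 2.00%, was 2.97% and 1.20% with these gap limits, 1.99% with no width limit, 2.10% with a limit of 5000 bp, 1.09% in the upper scores and 2.01% on the major arms. It was 0.714% with an overlap of 50%, 3.71% when covering 50% of the gap counted as a bridge, and 1.65% where both neighbours were found in both replicates. The share present in both replicates was 80.0% with 1000 bp, 83.9% in the upper scores and 96.7% where both neighbours were found. With either replicate left out, 80.3% were present in the single remaining replicate, which is not a share present in both. States differed at 3.30% of gaps where both neighbours were found. The median replicate gap, 355.5 bp, was 238 bp and 577.25 bp with the gap limits, 349.75 bp with the 5000 bp limit and 336.75 bp in the upper scores. The share on X was 9.55%, 23.1%, 13.4% and 10.4% under gap limits of 250 and 1000 bp, the 5000 bp limit and the upper scores, against 6.88%, 19.5%, 9.91% and 9.08% on the large autosomal arms. Replicate gaps bridged in the combined list numbered 103 on average (32.8% of close replicate gaps) and 36 (27.8%) in the upper scores. Their share was 50.4% with a gap limit of 250 bp and 20.7% with 1000 bp. Changes under another limit or score filter follow from the choice of regions. No paired analysis was possible because the input samples have no region list here.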

Other observations

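Longer runs were rare on X. In the combined list 1 of 81 runs on X had 3 or more regions (1.23%, exact 95% interval 0.0313 to 6.69%), against 24 of 236 on the large autosomal arms (10.2%, 6.63 to 14.8%), although X had the larger share of closely spaced regions. That run lay at 11259665 to 11270916, with regions of 6624, 3257 and 1069 bp and gaps of 49 and 253 bp. Its first gap measured 352 bp in replicate 1 and 93 bp in replicate 2, and its last region had no counterpart in either. With the same rule in each replicate the counts were 2 of 58 runs on X and 23 of 219 on the large arms in replicate 1 (3.45% and 10.5%), and 4 of 65 and 17 of 229 in replicate 2 (6.15% and 7.42%). The lists share these replicates, and the pattern was noticed in the data and not tested.

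Of 244 bins of up to 500 kb on the 6 major arms, 71 held no closely spaced region. Those 71 bins had a median of 14 enriched regions of any spacing (interquartile range 10 to 19), against 22 (18 to 28) in the other 173. These counts include the members by which the bins were split, so the medians are not independent of the split. The spread of closely spaced regions along the arms was not tested. The bins with the most were on 3R at 16500001 to 17000000, with 11 members among 34 enriched regions, and on X at 6500001 to 7000000 and at 15500001 to 16000000, with 11 among 29 and 11 among 32.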
